A study of Mus musculus with 6 samples.

Results

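Genes that mark bile duct cells or the ductular reaction, *Krt7*, *Krt19*, *Krt23*, *Epcam*, *Sox9*, *Spp1*, *Cftr*, *Cldn4* and *Muc1*, were followed in the livers of mice that had received a guide RNA against *Prdx2* or a control guide. They were taken by symbol as a set of known markers, with no cutoff on a measured value, though earlier results of these data were known. All 9 of the 9 symbols had a row among the 52459 genes of the count table, and all 9 were among the 17032 genes with enough counts to be tested. Fitted levels of all 9 were lower in sgPrdx2 livers, as were those of 51.7% of all genes tested. For *Krt19*, *Krt23* and *Sox9* the sign changed when 1 liver was left out. Of the 9, only *Cldn4* passed the test across all genes, which 3.33% of genes tested passed, and it failed without certain single livers. Its level in sgPrdx2 livers was 56.3% of that in sgCtrl livers.

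The livers came from male Alb-Cre/Cas9 F1 mice of the C57BL6J strain, aged 8 months. In both groups the albumin promoter drove Cre, which switched on Cas9 in the liver. Both groups also received the carcinogen diethylnitrosamine (DEN, 100 mg/kg) and then the choline-deficient CDA-HFD diet for 6 months, which injures the liver and makes it fibrotic. They differed in the virus given by intravenous injection, AAV8-U6-sgCtrl in mice 5.1, 7.1 and 7.2 and AAV8-U6-sgPrdx2 in mice 1.1, 1.3 and 3.2, so each group held 3 livers. Whole liver RNA was sequenced, so duct cells were measured with all other cells, and the guide could cut only where Cas9 was present. The paper describes the AAV8 vector as bringing the guide to hepatocytes. Whether duct cells carried Cas9 was not measured here.

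Cholangiocytes are the epithelial cells that line the bile ducts. They make up a small part of the liver, carry keratins and adhesion proteins that healthy hepatocytes largely lack, and adjust bile by moving salt, bicarbonate and water. After long injury, small irregular ducts spread from the portal tracts. This ductular reaction contains cholangiocytes and cells with both biliary and hepatocyte features, and it usually comes with macrophages and matrix-producing stellate cells. In bulk tissue, fewer cells of a type and less RNA per cell cannot be told apart.

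Libraries held 37462102 to 56865293 counts, so that 3 counts corresponded to 0.0555 to 0.0921 in the normalized unit CPM, which gives counts relative to library size. The normalization factors of the trimmed mean of M values (TMM) were 1.12 to 1.17 in sgCtrl livers and 0.805 to 0.951 in sgPrdx2 livers, and mitochondrial transcripts took 2.79 to 3.50% and 3.08 to 4.19% of counts. *Prdx2* itself could not be used to check the labels. Its counts were 4783, 5247 and 6939 in livers 5.1, 7.1 and 7.2 and 4345, 6052 and 4858 in livers 1.1, 1.3 and 3.2, with a log2 fold change of 0.01 (SE 0.18) and an edgeR adjusted p of 0.983. The paper reports loss of PRDX2 protein from hepatocytes in this model by tissue staining, and RNA counts do not measure protein.

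Of the 9 markers, the DNA just upstream of the start site is shown for the gene that passed the test, *Cldn4*, and for the gene with the largest fold change, *Muc1*. Each run is the 250 bases before a RefSeq start site, written 5′ to 3′ on the strand of the gene in build GRCm38.p6. The windows are chr5:134946935-134947184 on the minus strand for *Cldn4* and chr3:89228806-89229055 on the plus strand for *Muc1*. Capitals mark matches to 3 short motifs searched on both strands.
Cldn4: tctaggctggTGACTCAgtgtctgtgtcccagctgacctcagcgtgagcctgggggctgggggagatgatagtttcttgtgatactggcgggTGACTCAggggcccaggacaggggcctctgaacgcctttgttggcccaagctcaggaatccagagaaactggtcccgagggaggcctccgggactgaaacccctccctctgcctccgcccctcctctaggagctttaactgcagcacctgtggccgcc
Muc1: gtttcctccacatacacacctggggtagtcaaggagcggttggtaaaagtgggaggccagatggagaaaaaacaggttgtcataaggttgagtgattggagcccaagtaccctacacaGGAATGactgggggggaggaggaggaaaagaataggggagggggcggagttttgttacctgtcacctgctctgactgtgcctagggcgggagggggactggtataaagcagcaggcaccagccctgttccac

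The motifs were GGAATG, bound by TEAD factors, TGANTCA, bound by AP-1, and ACAATG, bound by SOX factors. *Cldn4* held 2 AP-1 matches, 240 and 158 bases before the start, and *Muc1* held 1 TEAD match 132 bases before it. *Krt23* held 1 SOX match 90 bases before its start. The windows of *Krt7*, *Epcam* and *Cftr* and both windows of *Spp1* held none of these letters. Among 32851 windows of the same length, 12.6% held the TEAD motif, 6.75% the AP-1 motif and 10.7% the SOX motif. RefSeq windows were matched for 7 of the 9 genes, and *Krt19* and *Sox9* were the 2 without one. A match is a run of letters, not a bound site.

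The keratins form the intermediate filaments of duct epithelium, and none of the 3 passed the test. *Krt7* (chr15:101411043-101430313, plus strand), a type II keratin, stood at 32.2, 19.2 and 22.6 CPM in livers 5.1, 7.1 and 7.2 and at 16.3, 21.0 and 25.3 CPM in livers 1.1, 1.3 and 3.2. Its means were 24.7 ± 6.73 and 20.9 ± 4.48 CPM (SD, n = 3 each). The groups overlapped, since livers 1.3 and 3.2 lay within the sgCtrl range, and the log2 fold change was -0.24 (SE 0.23, edgeR adjusted p = 0.536) and was -0.0049 without liver 5.1.

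*Krt19* (chr11:100140810-100148665, minus strand), a type I keratin and the most used duct marker, stood at 94.2, 32.3 and 38.4 CPM in sgCtrl livers and at 27.8, 37.1 and 44.3 CPM in sgPrdx2 livers. Liver 5.1 was far above the other 5, and liver 3.2 exceeded livers 7.1 and 7.2. The means were 55.0 ± 34.1 and 36.4 ± 8.23 CPM, and the log2 fold change of -0.59 (SE 0.39, edgeR adjusted p = 0.379) became 0.040 without liver 5.1. *Krt23* (chr11:99477974-99493137, minus strand), a keratin known to be induced in injured liver, had its high value in another mouse. It stood at 14.4, 13.6 and 35.7 CPM against 9.64, 18.99 and 20.6 CPM. Liver 7.2 was the highest, and livers 1.3 and 3.2 were above livers 5.1 and 7.1. The log2 fold change was -0.37 (SE 0.42, edgeR adjusted p = 0.608), and without liver 7.2 it was 0.23.

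The adhesion and junction genes were the steadiest within sgPrdx2 livers. *Epcam* (chr17:87635979-87651129, plus strand), an adhesion molecule of duct and progenitor cells, stood at 66.0, 54.3 and 59.5 CPM in sgCtrl livers and at 45.9, 46.7 and 46.6 CPM in sgPrdx2 livers. Every sgPrdx2 liver was below every sgCtrl liver, with 7.59 CPM between the nearest pair. The means were 59.9 ± 5.82 and 46.4 ± 0.450 CPM, and the log2 fold change of -0.37 (SE 0.12) did not pass the test (edgeR adjusted p = 0.123).

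*Cldn4* (chr5:134945119-134946934, minus strand) encodes claudin-4, which seals tight junctions between duct cells. It stood at 14.9, 15.8 and 12.0 CPM in livers 5.1, 7.1 and 7.2 and at 8.02, 7.93 and 8.08 CPM in livers 1.1, 1.3 and 3.2. The groups were 3.97 CPM apart at their nearest values. The means were 14.2 ± 1.95 and 8.01 ± 0.0729 CPM, and *Cldn4* fell, with a log2 fold change of -0.83 (SE 0.15, edgeR adjusted p = 0.0394). Of all genes tested, 3.33% passed this threshold, 1.54% lower and 1.79% higher, and *Cldn4* ranked 208 by p. The test was lost when any 1 of livers 5.1, 7.1, 7.2, 1.1 or 1.3 was left out, at edgeR adjusted p of 0.0678 to 0.147, while the log2 fold change stayed between -0.93 and -0.75. Without liver 5.1, 7.2, 1.1 or 1.3 no gene of the whole table passed, so that loss is not particular to *Cldn4*. Within sgPrdx2 livers the SD of *Cldn4* was smaller than the 0.439 CPM that counting error alone would give, and that of *Epcam* was smaller than its 1.06 CPM.

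*Muc1* and *Cftr* act at the apical, bile-facing side of the cell. *Muc1* (chr3:89229057-89233381, plus strand), a membrane mucin, stood at 71.6, 26.1 and 22.4 CPM in sgCtrl livers and at 14.1, 17.9 and 20.3 CPM in sgPrdx2 livers. The groups did not overlap, but the nearest values were only 2.06 CPM apart and liver 5.1 held the highest value by far. The means were 40.0 ± 27.4 and 17.5 ± 3.12 CPM, with a log2 fold change of -1.20 (SE 0.42, edgeR adjusted p = 0.138) that was -0.47 without liver 5.1.

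*Cftr* (chr6:18170687-18322768, plus strand) encodes the chloride channel through which cholangiocytes secrete chloride. It was the least abundant of the 9, at 4.16, 5.92 and 5.48 CPM in sgCtrl livers and at 3.69, 3.90 and 1.66 CPM in sgPrdx2 livers, the last from 54 counts. The groups did not overlap, with 0.256 CPM between the nearest livers, 5.1 and 1.3. The log2 fold change was -0.74 (SE 0.32, edgeR adjusted p = 0.200), and it was -0.44 without liver 3.2, which held the lowest value.

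*Sox9* (chr11:112782224-112787760, plus strand), the transcription factor of biliary fate that also marks hepatocytes turning towards it, was the flattest of the 9. It stood at 24.5, 26.1 and 24.9 CPM in sgCtrl livers and at 24.9, 26.8 and 19.8 CPM in sgPrdx2 livers. The groups overlapped and liver 1.3 held the highest value. The log2 fold change was -0.08 (SE 0.14, edgeR adjusted p = 0.755) and was 0.05 without liver 3.2.

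*Spp1* (chr5:104435118-104441050, plus strand) encodes osteopontin, a secreted matrix protein made by duct cells and also by macrophages in fibrotic liver. It stood at 1534, 1492 and 1707 CPM in sgCtrl livers and at 1112, 1258 and 1080 CPM in sgPrdx2 livers. Every sgPrdx2 liver was lower, by 234 CPM at the nearest pair. The means were 1578 ± 114 and 1150 ± 94.7 CPM, and the log2 fold change was -0.46 (SE 0.15, edgeR adjusted p = 0.117). Of 50-base stretches of its exons, 11.6% also occur in *Gm42793*, an overlapping gene on the same strand, and how reads in that overlap were counted is not given in the sources used here. *Krt7* and *Cftr* share 0.916% and 1.07% of such stretches with other genes and overlap exons of a gene on the other strand. The other 6 share none.

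**Figure D1:**
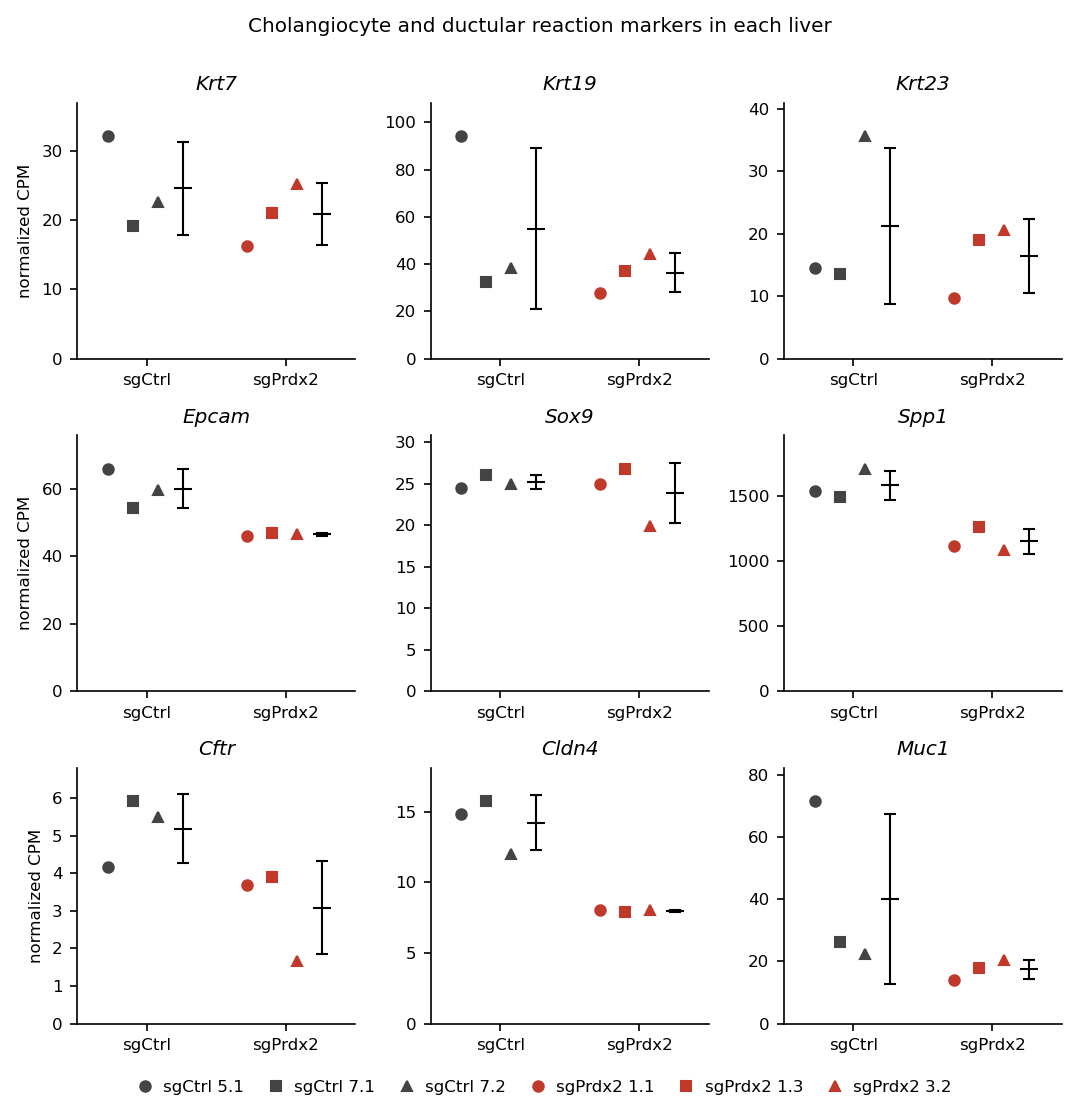
Normalized CPM (vertical axes, from 0) of the 9 markers in each of the 6 livers, sgCtrl in grey and sgPrdx2 in red, one symbol a mouse, with the mean and SD of each group as black bars. *Cldn4* and *Epcam* of the 3 sgPrdx2 livers lie close together below all sgCtrl livers, while the high *Krt19* and *Muc1* values are those of liver 5.1 and the high *Krt23* value is that of liver 7.2.

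Across the list, 9 of 9 log2 fold changes were below 0, against 51.7% of all genes tested, and their median was -0.46 against -0.02. The groups did not overlap, with sgPrdx2 lower, for 5 of 9 (*Epcam*, *Spp1*, *Cftr*, *Cldn4* and *Muc1*), against 17.5% of all genes. The same 5 had an unadjusted p under 0.05 in this direction, against 11.9%. These counts describe the list and carry no test, since its genes are measured in the same livers.

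The 9 transcripts together took 0.217, 0.189 and 0.217% of raw counts in sgCtrl livers and 0.112, 0.137 and 0.102% in sgPrdx2 livers. These shares are not TMM-scaled, so they include the shift of all genes between groups seen with total counts alone. The 95% Wilson intervals ran from 0.188 to 0.218% and from 0.101 to 0.138% over the livers and cover counting error only. With TMM scaling the 9 summed to 1685 to 1928 CPM in sgCtrl livers and 1263 to 1438 CPM in sgPrdx2 livers, a smaller difference. *Spp1* made up 82.7 to 88.5% of their summed CPM. Without it the sums were 322, 193 and 221 CPM in sgCtrl livers and 150, 180 and 187 CPM in sgPrdx2 livers. The groups did not overlap, and liver 5.1 stood apart.

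No liver was high for all markers. Liver 5.1 held the highest value of *Krt7*, *Krt19*, *Epcam* and *Muc1*, liver 7.1 that of *Cftr* and *Cldn4*, liver 7.2 that of *Krt23* and *Spp1*, and liver 1.3 that of *Sox9*. All 9 lowest values were in sgPrdx2 livers, 5 of them in liver 1.1, 3 in liver 3.2 and 1 in liver 1.3.

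Compared per kilobase of the principal transcript, which allows levels to be set between genes, *Spp1* was far above the rest at 1047 ± 75.6 CPM per kb in sgCtrl livers and 763 ± 62.9 CPM per kb in sgPrdx2 livers. *Krt19* followed at 34.9 and 23.1 CPM per kb, then *Epcam* at 29.4 and 22.8 CPM per kb. In sgCtrl livers the order went on with *Muc1* (17.9 CPM per kb), *Krt23* (13.6), *Cldn4* (7.83), *Sox9* (6.09) and *Krt7* (6.02), and *Cftr* was last at 0.823 CPM per kb. In sgPrdx2 livers it went on with *Krt23* (10.5 CPM per kb), *Muc1* (7.79), *Sox9* (5.77), *Krt7* (5.095) and *Cldn4* (4.41), with *Cftr* again last at 0.489 CPM per kb. Neighbours in the sgCtrl order overlapped from *Krt19* through *Cldn4*, and *Sox9* overlapped *Krt7*. In sgPrdx2 livers *Krt19* overlapped *Epcam*, and neighbours overlapped from *Krt23* through *Cldn4*. *Cldn4* stood above *Sox9* in the first order and below it in the second, without overlap in either.

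Ratios of counts within a liver do not depend on the scaling of libraries. *Krt7* to *Krt19* was 0.595 and 0.588 in livers 7.1 and 7.2 and 0.586, 0.566 and 0.571 in livers 1.1, 1.3 and 3.2. In liver 5.1 it was 0.342. The pair of keratins thus kept one ratio in 5 livers while *Krt19* was higher relative to *Krt7* in liver 5.1. *Muc1* to *Krt19* was 0.760, 0.809 and 0.583 in sgCtrl livers and 0.508, 0.484 and 0.459 in sgPrdx2 livers. *Cldn4* to *Epcam* was 0.225, 0.290 and 0.202 in sgCtrl livers and 0.175, 0.170 and 0.173 in sgPrdx2 livers. Neither of these ratios overlapped between groups. *Muc1* to *Epcam* did overlap, at 1.09, 0.481 and 0.376 in sgCtrl livers and 0.308, 0.384 and 0.436 in sgPrdx2 livers, and so did *Cftr* to *Epcam*, at 0.0630 to 0.109 and 0.0356 to 0.0835. *Cldn4* was thus low relative to *Epcam*, while *Muc1* separated the groups relative to *Krt19* and not relative to *Epcam*. *Spp1* to *Epcam* was 23.3 to 28.7 in sgCtrl livers and 23.2 to 26.9 in sgPrdx2 livers, and overlapped.

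**Figure D2:**
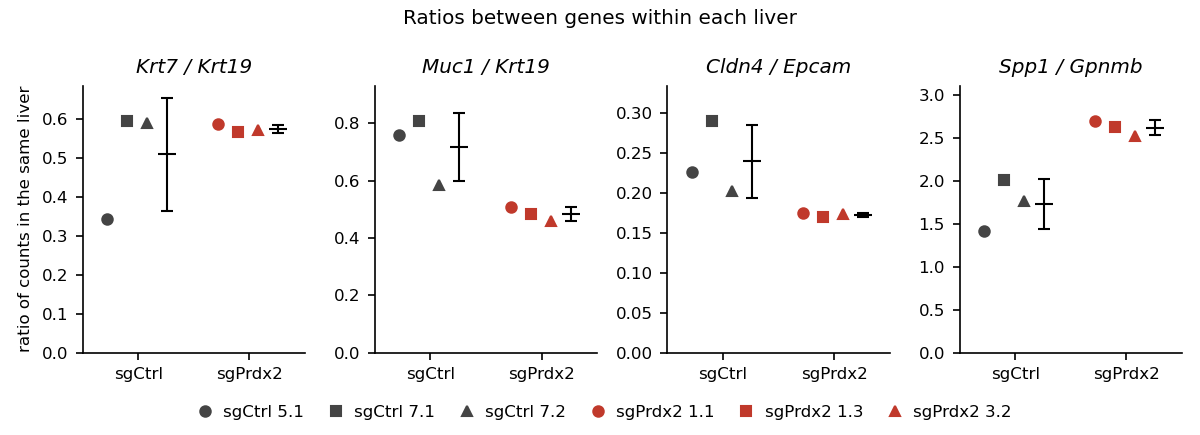
Ratios of counts (vertical axes, from 0) between pairs of genes in each of the 6 livers, with mean and SD of each group of 3 as black bars. *Krt7* to *Krt19* is 0.342 in liver 5.1 and 0.566 to 0.595 in the others, *Muc1* to *Krt19* and *Cldn4* to *Epcam* are lower in all 3 sgPrdx2 livers, and *Spp1* to the macrophage gene *Gpnmb* is higher in all 3.

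A second list of 24 biliary genes held 2 that fell and none that rose, where 1.54% of all genes tested fell and 1.79% rose. The 2 were *Ehf*, an epithelial ETS transcription factor (log2 fold change -0.81, edgeR adjusted p = 0.0358), and *Prom1*, which encodes the progenitor surface protein CD133 (-0.76, edgeR adjusted p = 0.0471). *Ehf* stood at 35.8, 30.7 and 30.2 CPM in sgCtrl livers and at 19.1, 19.6 and 16.3 CPM in sgPrdx2 livers, without overlap. *Prom1* stood at 31.5, 26.6 and 29.9 CPM against 13.8, 19.2 and 18.8 CPM, also without overlap. None of the 24 passed when liver 5.1, 7.2, 1.1 or 1.3 was left out, where no gene of the whole table passed edgeR's test. *Elf3*, another epithelial ETS factor, had the next smallest p (log2 fold change -0.59, edgeR adjusted p = 0.0541). Of the 24, 17 had a log2 fold change below 0 (51.7% of all genes), 9 did not overlap with sgPrdx2 lower (17.5% of all genes), and the median was -0.31.

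*Mmp7*, a matrix metalloproteinase of injured duct epithelium, stood at 169, 25.4 and 87.1 CPM against 13.9, 21.3 and 42.2 CPM (log2 fold change -1.86, edgeR adjusted p = 0.137), with liver 5.1 highest, as for *Krt19* and *Muc1*. This gene was chosen after its values were seen. The summed CPM of the 24 genes overlapped, at 2014 to 2408 in sgCtrl livers and 2049 to 2613 in sgPrdx2 livers. That sum mainly follows the keratins *Krt8* and *Krt18*, also chosen after their values were seen. Their means were 572 and 683 CPM in sgCtrl livers and 646 and 860 CPM in sgPrdx2 livers. Both had log2 fold changes above 0 (0.18 and 0.33, edgeR adjusted p = 0.679 and 0.481). The overlap of the sums therefore does not describe the less abundant genes of the list. Which cells the *Krt8* and *Krt18* transcripts came from was not measured, so their values are not read as levels of duct cells.

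Of 22 genes for signals that drive or accompany the ductular reaction (Notch, YAP, TWEAK, FGF7, integrin and TGF-β), 1 fell and none rose. It was *Ankrd1*, a target of YAP (log2 fold change -0.78, edgeR adjusted p = 0.0472), at 22.3, 17.9 and 20.3 CPM against 11.1, 13.9 and 10.1 CPM. No gene of the list passed when any 1 of livers 5.1, 7.1, 7.2, 1.1 or 1.3 was left out, and 1.54% of all genes fell with all 6 livers. *Tnfrsf12a*, the receptor of TWEAK (-0.76, edgeR adjusted p = 0.0721), and *Ctgf*, another YAP target (-0.91, edgeR adjusted p = 0.0923), came next. Other genes of the YAP pathway, chosen after their values were seen, did not pass. The YAP targets *Cyr61* and *Amotl2* had log2 fold changes of 0.24 and -0.07, and *Yap1* itself 0.05. Of the 22, 17 lay below 0 (51.7% of all genes), 5 did not overlap with sgPrdx2 lower, a share near the 17.5% of all genes, and the median was -0.26.

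**Figure D3:**
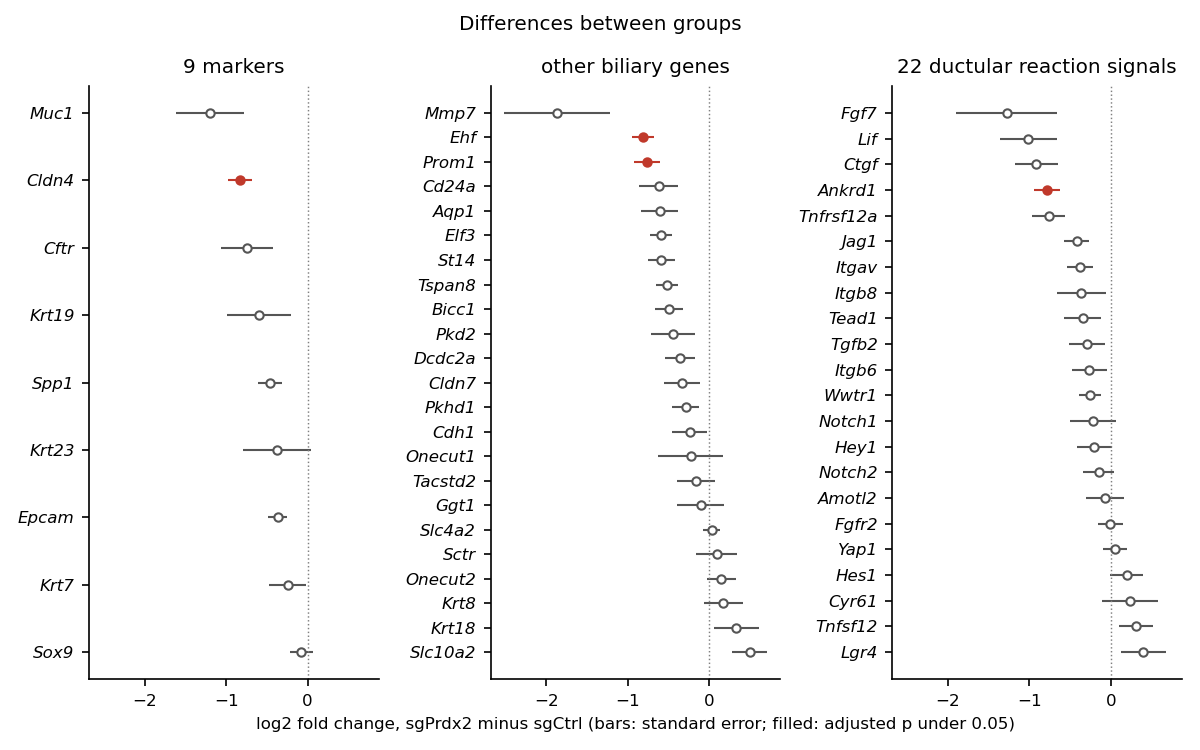
Log2 fold changes of sgPrdx2 minus sgCtrl (horizontal axis, bars for the standard error, 3 livers a group) for the 9 markers, 23 of the 24 other biliary genes and 22 signalling genes, sorted within each list, with filled red points for genes past the threshold. All 9 markers lie left of 0, and *Cldn4*, *Ehf*, *Prom1* and *Ankrd1* are the 4 filled points.

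Markers of other cells moved between the same groups. Of all genes tested, 51.7% lay below 0, 1.54% fell, 1.79% rose and 17.5% did not overlap with sgPrdx2 lower. Of 12 hepatocyte genes, 12 had a log2 fold change above 0 and 5 rose (*Uox*, *Ttr*, *Cyp2e1*, *Apoa1* and *Alb*), and their summed level was 79674 to 85459 CPM in sgCtrl livers and 137545 to 182642 CPM in sgPrdx2 livers. Of 11 macrophage genes, 11 lay below 0, 7 did not overlap with sgPrdx2 lower and 4 fell (*Gpnmb*, *Mpeg1*, *Cd9* and *Msr1*), with a summed level of 2545 to 3300 CPM and 1602 to 2009 CPM. Among them, *Gpnmb* stood at 1082, 744 and 966 CPM against 412, 479 and 428 CPM. *Spp1* to *Gpnmb* was 1.42, 2.01 and 1.77 in sgCtrl livers and 2.70, 2.62 and 2.52 in sgPrdx2 livers, so *Gpnmb* was lower by a larger factor than *Spp1*.

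Of 10 stellate cell and myofibroblast genes, 9 lay below 0, 6 did not overlap with sgPrdx2 lower (17.5% of all genes) and none passed edgeR's test. At an unadjusted p under 0.05, 6 of them were lower, against 11.9% of all genes. The summed level was 2264 to 2596 CPM against 1647 to 1695 CPM. Of 7 endothelial genes, 6 lay below 0, 4 did not overlap with sgPrdx2 lower and 1 fell (*Pecam1*), with a median log2 fold change of -0.74, at a summed 236 to 260 CPM against 164 to 242 CPM. Of 6 mesothelial genes, 5 were tested and none passed, at 10.2 to 20.6 CPM against 9.61 to 13.7 CPM. Of 8 genes of hepatocellular tumours, 6 lay below 0, 2 lay above 0 and 3 fell (*Cd44*, *Ly6d* and *Golm1*). The summed level was 338 to 467 CPM against 182 to 337 CPM, and *Ly6d* was its largest part (means 226 and 105 CPM). *H19* and *Igf2* had log2 fold changes of 0.88 and 1.02, and *Afp* and *Gpc3* of -0.14 and -0.10, and none of these passed. Of 6 housekeeping genes, 5 lay above 0, 3 of them at an unadjusted p under 0.05, and none passed edgeR's test, at 1896 to 2180 CPM against 2419 to 2977 CPM. Of 7 pancreas genes, 2 were tested and none passed, *Amy2a5* had no count in any liver, and *Ctrb1* had 335 counts in liver 5.1 and 6 or fewer in each other liver. The part of these other cells in the values of the 9 markers was not tested.

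The 5 other genes nearest to the mean profile of the 9 markers were *Dapp1*, *Emb*, *Wdfy4*, *Cd22* and *Tbpl1*, out of 14114 genes that averaged 1 CPM or more. Their root mean square difference from it over the 6 livers was 0.05 to 0.06 on the log2 CPM scale. Of the 9 markers, *Epcam* was nearest to their mean (0.10) and *Krt23* farthest (0.54).

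Scaling moved the size of every difference. With total counts alone, the median over all genes shifted to -0.39 and 4 of the 9 passed the test (*Epcam*, *Spp1*, *Cldn4* and *Muc1*), and with housekeeping genes it shifted to -0.38 and 3 passed (*Epcam*, *Spp1* and *Cldn4*). Of all genes tested, 19.1% passed with total counts alone and 5.81% with housekeeping genes, against 3.33% with TMM. Lower genes made up 93.7% and 92.9% of all calls under these scalings, against 46.2% with TMM. Relative to the shift of all genes the median of the 9 markers was -0.43 in both, against -0.44 with TMM. Scaling moves all genes by nearly the same amount, so these near-equal values follow from the calculation and test nothing about the markers.

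**Figure D4:**
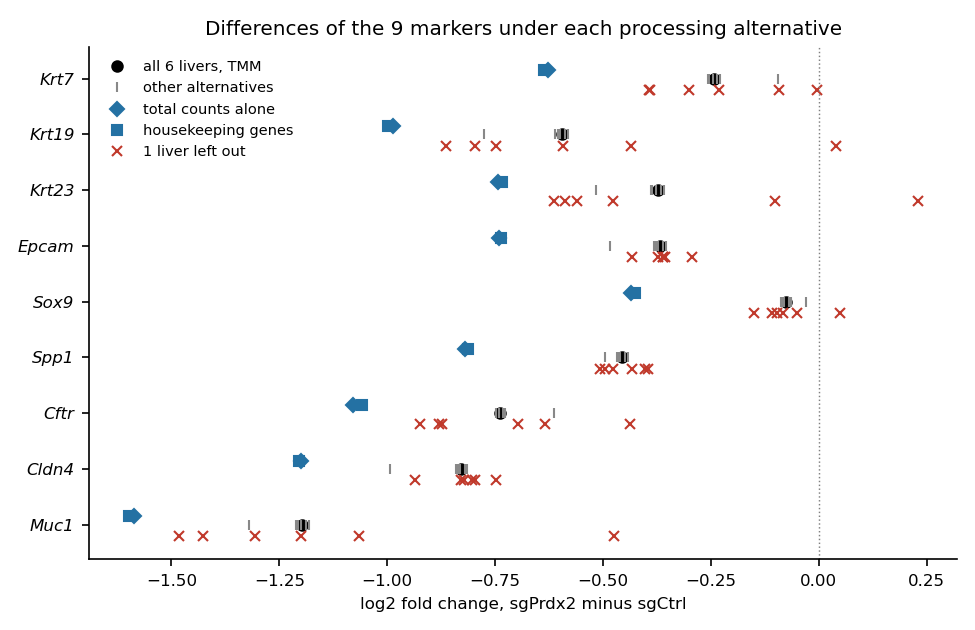
Log2 fold changes of the 9 markers (horizontal axis) with TMM over all 6 livers (black), under total counts or housekeeping scaling (blue), with 1 liver left out (red crosses) and under the other alternatives (grey ticks). *Krt19*, *Krt23* and *Sox9* each cross 0 when 1 liver is left out, and *Cldn4* stays between -1.20 and -0.75.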

How the data were processed

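Whole liver RNA-seq of 6 mice, 3 a group, was analysed. Per the labels' processing notes, reads were aligned with HISAT2 to GRCm38 and counted per gene with HTSeq; versions, annotation release and strand setting are not given in the sources used here. The deposited values are raw counts per gene, not normalized by the authors. A deposited table of the authors' own DESeq2 comparison (fold changes and p-values) was not used. No per-sample column was left unmapped.

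Groups came from the labels. Nothing states more than 1 library per mouse, so p-values measure the spread between these livers. Genes were kept by filterByExpr (minimum count 10), scaled by TMM and tested with edgeR 4.0.16 (quasi-likelihood, R 4.3.3) with Benjamini-Hochberg adjustment over 17032 genes, threshold 0.05. SE is the log2 fold change divided by the root of F. The code was tested on simulated data. CPM are TMM-scaled. Likeness used centred log2(CPM + 0.5). Positions and transcript lengths came from GENCODE vM21, and upstream sequences from RefSeq GRCm38.p6. CPM are counts divided by the scaled library size and multiplied to a fixed total, and intervals on shares cover counting error only.

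The 9 markers and the other gene lists were chosen with earlier results of these data known. Named genes were the 9 markers, *Prdx2*, the 5 nearest profiles and, in each other list, genes past the threshold or up to 3 with the smallest p. *Mmp7*, *Krt8*, *Krt18*, *Cyr61*, *Amotl2*, *Yap1*, *H19*, *Igf2*, *Afp*, *Gpc3*, *Amy2a5* and *Ctrb1* were named outside this rule, after their values were seen. One gene of the biliary list counts in that list's totals and is not reported here. In the lists of other cells only counts and totals are given, with few names. Alternatives were DESeq2 1.42.0, other scalings, other filters, a length and GC correction and leaving out each liver.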

Additional observations from a re-analysis of the deposited data

How the results depend on the processing

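All 14 alternatives were run. Genes past the threshold numbered 567 with TMM (3.33% of genes tested), 3247 with total counts alone (19.1%) and 989 with housekeeping genes (5.81%). They numbered 2066 with DESeq2 (7.23% of 28594 genes), 1128 without a filter (3.94%) and 981 with the length and GC correction (5.93%). Of the 9 markers, 1 passed with TMM, 4 with total counts alone, 3 with housekeeping genes and 3 with DESeq2 (*Spp1*, *Cldn4* and *Muc1*), and 5 were without overlap with TMM and 8 with either total counts or housekeeping genes. With TMM, 17.5% of all genes did not overlap with sgPrdx2 lower, and this share is not given for the other scalings. Other biliary genes past it numbered 2 with TMM, 10 with total counts, 5 with housekeeping genes and 5 with DESeq2. Signalling genes past it numbered 1 with TMM, 7 with total counts, 2 with housekeeping genes, 4 with DESeq2, 3 without a filter and 2 with the length and GC correction. Leaving out 1 liver gave 0 to 619 genes over the table, 0 to 1 of the 9 markers, 0 to 4 biliary genes (4 without liver 3.2, 1 without liver 7.1 and 0 without each other liver) and 0 to 1 signalling genes (1 without liver 3.2 only). The table had 0 genes past edgeR's threshold without liver 5.1, 7.2, 1.1 or 1.3, where 3114 to 3993 genes had an unadjusted p under 0.05; DESeq2 was run only on all 6 livers.

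Leaving out 1 liver gave log2 fold changes of -0.86 to 0.040 for *Krt19*, -0.61 to 0.23 for *Krt23* and -0.15 to 0.050 for *Sox9*, above 0 without livers 5.1, 7.2 and 3.2 respectively, and of -1.48 to -0.47 for *Muc1*. *Krt7*, *Epcam*, *Spp1*, *Cftr*, *Cldn4* and *Muc1* stayed below 0 in all 14 alternatives, *Krt7* only just, at -0.0049 without liver 5.1. *Cldn4* passed the threshold in 9 of them. *Epcam* had an adjusted p of 0.0206 to 0.309 over the alternatives and *Spp1* one of 0.0189 to 0.297. The causes of these changes were not tested. No paired analysis was possible because the groups share no mouse numbers.

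The median log2 fold change was 0.16, -0.05 and -0.17 in the shortest, the middle and the longest of 3 classes of genes by transcript length, among 14204 genes with a length. With 3 livers a group, and 54 counts of *Cftr* in 1 liver, small differences were not detectable.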
